A study of Mus musculus with 10 samples.

Results

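The mouse Hox genes were followed through hearts of embryos that had been exposed to gestational hypoxia or that carried an Nkx2-5 mutation. The members were 38 Hox genes of the clusters A to D, listed by symbol and matched by Ensembl identifier to a table of 49662 genes, and 37 of them had a row there. No row carried the identifier of Hoxd4, whose expression is therefore not analysed here. Of the 37, 28 reached at least 10 estimated fragments (sequenced pieces of RNA assigned to a gene) in some group and were compared one by one, as were 17204 genes of the table in all. Hearts of wild-type embryos whose mothers were kept at 14% oxygen from gestation day 10 form the wild-hypoxia group (3 samples). Hearts of embryos heterozygous for a knock-in mutation of Nkx2-5, a homeodomain factor of the heart, kept at normal oxygen form the mutant-normoxia group (3 samples). Wild-type hearts from normal oxygen form the wild-normoxia group (4 samples), which serves as control for both. According to the study's methods the hearts were taken at E12.5 from wild-type dams mated with mutant males of a backcrossed line, and each sample pooled RNA of several hearts. A knock-in allele sits in every cell of the embryo, so tissue outside the heart carries it as well. No group combined the mutation with hypoxia here.

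Hox genes encode homeodomain transcription factors that give cells their position along the head-to-tail axis. Their order along each chromosomal cluster matches the order in which they are used in the embryo: paralogue groups 1 to 4, here called anterior, are active first and reach the hindbrain, groups 5 to 8, here central, mark the thorax, and groups 9 to 13, here posterior, mark the lumbar and tail region, the limbs and the genital and urinary tissues. In the heart, anterior Hox genes are known from the second heart field, where retinoic acid sets them, and from neural crest that enters the outflow tract. Many Hox proteins bind DNA together with the TALE homeodomain cofactors Pbx and Meis.

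The deposited table gave 1 estimated fragment count and 1 model variance per gene and group, with no value for a single sample. Each group was therefore a single value, no p-value could be computed from it, and no spread between samples could be seen. The study's own test listed Hoxb9 as significant in mutant-normoxia against wild-normoxia hearts. It did not list Hoxa9, Hoxa10, Hoxb5, Hoxb8, Hoxd12 or Hoxd13 there, and it listed no Hox gene for wild-hypoxia hearts. Where an error is given, it is a standard error derived from the deposited variance divided by the number of samples in the group, called the model standard error (SE). Log2 fold changes were taken after adding a pseudocount of 1, which understates the difference for low genes. Estimated fragments totalled 19.58 M in wild-hypoxia, 18.68 M in mutant-normoxia and 18.54 M in wild-normoxia hearts. The 11 heart muscle markers summed to 518511 fragments in wild-hypoxia, 543645 in mutant-normoxia and 502038 in wild-normoxia hearts, and none differed over 2-fold. Nkx2-5 itself had 4131, 4106 and 3689 fragments in these groups, a count in which both alleles are read together and which therefore checks no label.

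Anterior Hox genes held most of the Hox fragments in every group, a share not adjusted for gene length. Per kb of exon in the NCBIM37 gene models, the central gene Hoxa5 led in wild-hypoxia hearts with 77.5 fragments per kb, ahead of Hoxb3 with 68.2. Hoxa5 also led in mutant-normoxia hearts with 98.4 fragments per kb, ahead of Hoxb3 with 86.9. In wild-normoxia hearts the order was Hoxb3 with 66.2, Hoxa5 with 51.0, Hoxa4 with 38.3 and Hoxb2 with 37.0 fragments per kb. The Hoxb3 and Hoxb2 models share 1140 and 1632 exon bases with the antisense gene Hoxb3os, so their levels are less certain. The Hoxa3 model shares exon bases with other genes too. Hoxb3 and Hoxb2 are hindbrain and pharyngeal arch genes, and Hoxa5 is required for the patterning of the lung and the neck vertebrae. Over the 37 genes the level per kb declined with paralogue number, with a Spearman rho of -0.67 in wild-hypoxia, -0.55 in mutant-normoxia and -0.79 in wild-normoxia hearts. These are descriptions over genes of shared libraries and clusters. The plot of fragments by gene shows the higher posterior values of mutant-normoxia hearts. Within single clusters the decline was not steady. In cluster D of mutant-normoxia hearts Hoxd1 had 3.58 fragments, Hoxd3 78.6, Hoxd8 19.4 and Hoxd13 27.4.

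**Figure D1:**
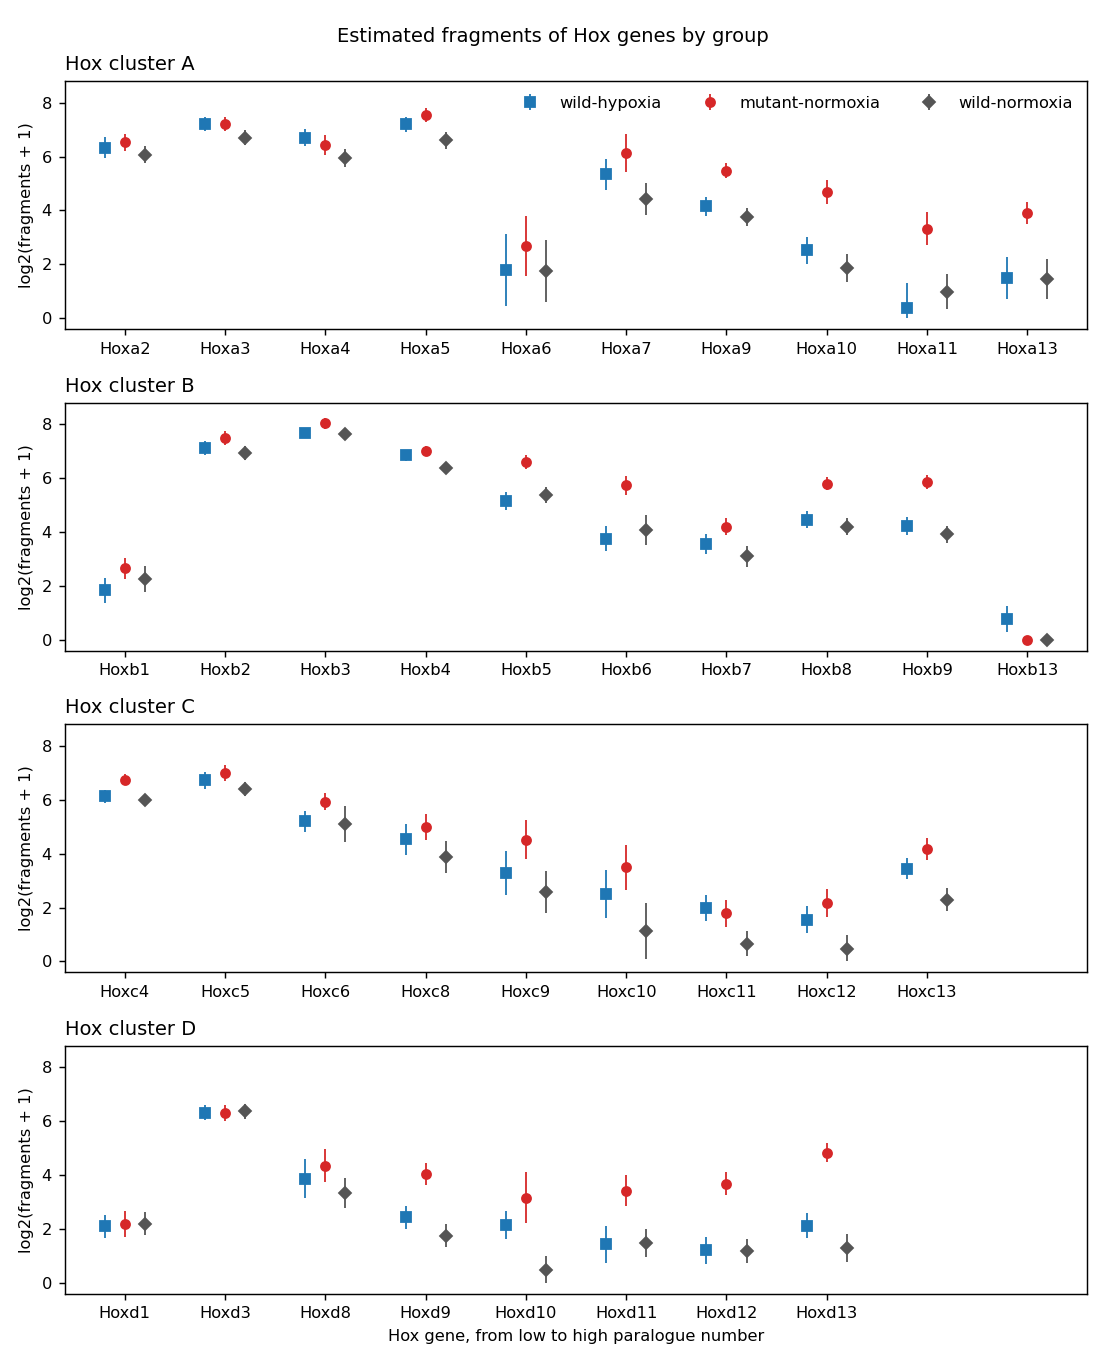
Level of the 37 Hox genes with a row, as log2 of estimated fragments plus 1, by cluster and from low to high paralogue number, in wild-hypoxia (blue squares), mutant-normoxia (red circles) and wild-normoxia (grey diamonds) hearts. Bars are 1 model SE of the group value, stopped at 0. Hoxd13 stood at 27.4 fragments in mutant-normoxia hearts, against 1.46 in wild-normoxia hearts, whereas Hoxd3 was nearly level.

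The Nkx2-5 mutation was examined first by asking where along the clusters mutant-normoxia hearts differed from wild-normoxia hearts. The posterior genes were higher in mutant-normoxia hearts as a block. Summed over all posterior genes with a row, they gave 276 fragments in mutant-normoxia hearts, against 50.3 in wild-normoxia hearts, a ratio of 5.49 (log2 2.46, model SE 0.23). The central genes summed to 715 fragments in mutant-normoxia hearts and 340 in wild-normoxia hearts (log2 1.07, model SE 0.19). The anterior genes summed to 1083 fragments in mutant-normoxia hearts and 785 in wild-normoxia hearts (log2 0.46, model SE 0.13). For these and all later sums the gene variances were added as if the genes varied independently. The genes share libraries, so variation common to them is left out and these errors may be too small. In these whole-heart libraries more cells of a type that carries posterior Hox RNA and more such RNA per cell cannot be told apart.

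Of the 37 genes, 34 were higher in mutant-normoxia hearts by any amount, 2 were lower (Hoxd1 and Hoxd3) and Hoxb13 was listed at 0 in both groups, whereas 48.0% of all genes above 0 in some group were higher. Of the 28 compared, 17 were over 2-fold higher and 0 were over 2-fold lower, against 1.59% of the 17204 genes higher and 0.494% lower. Genes of low level reach such folds more often. Among the 7041 genes whose mean level lay within the range of the compared Hox genes, 3.34% were over 2-fold higher. In addition, 8 of the posterior genes reached 10 fragments through the mutant-normoxia group alone (Hoxa10, Hoxa13, Hoxc9, Hoxc10, Hoxc13, Hoxd9, Hoxd12 and Hoxd13), so that the filter itself required them to differ, and the count over the compared genes is no support for a posterior difference. With the filter set on the mean over the 3 groups instead, 24 Hox genes were left. Of these, 0 of 8 anterior and 7 of 10 central genes were over 2-fold higher in mutant-normoxia hearts, against 1.37% of the genes that passed the same filter. All 6 posterior genes left were so too, but 4 of them (Hoxa10, Hoxc9, Hoxc13 and Hoxd13) and the central gene Hoxb7 reached that mean only through their mutant-normoxia value, so this filter also fixed most of the posterior count. The posterior genes that did not need it were Hoxa9 and Hoxb9. Over all 37 the median log2 fold change was 1.12, against -0.01 over all compared genes.

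Paralogue group 13, the last group of the clusters, marks the tail end of the body axis, the digits and the genital tubercle. Summed over its genes with a row, it gave 58.5 fragments in mutant-normoxia hearts, against 7.10 in wild-normoxia hearts, a ratio of 8.24. Hoxd13, at chromosome 2: 74506367 to 74509656 on the plus strand (NCBIM37), had 27.4 fragments in mutant-normoxia hearts, against 1.46 in wild-normoxia hearts (log2 3.53, model SE 0.62). The ratio of the unadjusted values was 18.8, with a 95% exact counting interval of 4.45 to 1105 from the fragments rounded to whole numbers. The width comes from the single rounded fragment in wild-normoxia hearts, and the interval covers counting error only. Hoxa13, on the minus strand of chromosome 6, had 14.0 fragments in mutant-normoxia hearts, against 1.73 in wild-normoxia hearts (log2 2.46, model SE 0.84). Hoxc13, which is also a gene of hair and nail, had 17.1 fragments in mutant-normoxia hearts, against 3.91 in wild-normoxia hearts (log2 1.88, model SE 0.57). Hoxb13, a gene of the tail bud and prostate, was listed at 0 in both groups and at 0.72 fragments in wild-hypoxia hearts.

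Groups 10 to 12 had the same direction at low levels. Group 10, required for the lumbar vertebrae and the proximal hindlimb, summed to 43.0 fragments in mutant-normoxia hearts and 4.22 in wild-normoxia hearts. Within it Hoxa10 had 24.8 fragments in mutant-normoxia hearts, against 2.63 in wild-normoxia hearts (log2 2.83, model SE 0.69), and its ratio of 9.45 had a counting interval of 2.54 to 43.1. Hoxc10 had 10.2 fragments in mutant-normoxia hearts, against 1.21 in wild-normoxia hearts, with a log2 fold change of 2.35 that was under 2 of its model SE of 1.33. Hoxd10, under 10 fragments in all groups, had 7.91 in mutant-normoxia hearts and 0.39 in wild-normoxia hearts. Group 11, a gene set of kidney and forearm, summed to 21.1 fragments in mutant-normoxia hearts and 3.34 in wild-normoxia hearts, with Hoxa11 at 8.96 against 0.97 and Hoxd11 at 9.74 against 1.78. In group 12, which has members in clusters C and D only, Hoxd12 had 11.9 fragments in mutant-normoxia hearts, against 1.26 in wild-normoxia hearts (log2 2.51, model SE 0.62). In cluster C, Hoxc11 had 2.43 fragments in mutant-normoxia hearts and 0.58 in wild-normoxia hearts, and Hoxc12 had 3.49 and 0.39.

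Group 9, the highest of the posterior groups, was higher in mutant-normoxia hearts in all 4 clusters. It summed to 138 fragments in mutant-normoxia hearts, against 34.0 in wild-normoxia hearts, a ratio of 4.06. Hoxb9, a thoracic rib gene, had 57.3 fragments in mutant-normoxia hearts and 14.1 in wild-normoxia hearts (log2 1.95, model SE 0.41). Hoxa9, best known from blood progenitors and the limb, had 43.4 fragments in mutant-normoxia hearts and 12.6 in wild-normoxia hearts (log2 1.71, model SE 0.44). Hoxd9 had 15.5 fragments in mutant-normoxia hearts and 2.37 in wild-normoxia hearts (log2 2.29, model SE 0.58). Hoxc9 had 22.0 fragments in mutant-normoxia hearts and 4.99 in wild-normoxia hearts, with a log2 fold change of 1.94 that was under 2 of its model SE of 1.05. These 4 genes lie at the same rank in different clusters on chromosomes 6, 11, 15 and 2, and their log2 values lay between 1.71 and 2.29.

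The promoters of 2 group 13 genes and 2 central genes are shown because they differ in base composition. RefSeq promoter windows were matched for 22 of the 38 genes, Hoxd4 among them, and the 250 bases before the RefSeq start are shown for 4 of them. Each was found at 1 place in NCBIM37: Hoxd13 at chr2:74506032-74506281 on the plus strand, Hoxa13 at chr6:52210875-52211124 on the minus strand, Hoxb8 at chr11:96142969-96143218 on the plus strand, and Hoxa5 at chr6:52154587-52154836 on the minus strand. Hoxd13, Hoxa13 and Hoxb8 were over 2-fold higher in mutant-normoxia hearts, and Hoxa5 is a central gene that was not. Both strands were searched for TNAAGTG (the Nkx2-5 element), ACGTG (the hypoxia response core), TTTATG (the Cdx site) and AGGTCA (the retinoic acid receptor half-site), and capitals mark the matches.
Hoxd13: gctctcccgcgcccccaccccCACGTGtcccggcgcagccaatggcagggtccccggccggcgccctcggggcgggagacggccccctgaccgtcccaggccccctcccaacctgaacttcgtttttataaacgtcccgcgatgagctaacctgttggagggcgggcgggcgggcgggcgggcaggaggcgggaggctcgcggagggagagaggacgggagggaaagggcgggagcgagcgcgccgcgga
Hoxa13: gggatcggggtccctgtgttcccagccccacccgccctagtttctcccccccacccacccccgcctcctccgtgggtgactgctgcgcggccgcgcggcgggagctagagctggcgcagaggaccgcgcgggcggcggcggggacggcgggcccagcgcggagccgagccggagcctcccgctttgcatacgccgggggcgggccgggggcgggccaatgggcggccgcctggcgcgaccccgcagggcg
Hoxb8: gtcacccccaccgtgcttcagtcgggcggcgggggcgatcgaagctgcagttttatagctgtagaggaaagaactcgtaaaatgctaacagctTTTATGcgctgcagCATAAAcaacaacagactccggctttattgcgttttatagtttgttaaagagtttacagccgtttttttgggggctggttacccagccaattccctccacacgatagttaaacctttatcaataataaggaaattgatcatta
Hoxa5: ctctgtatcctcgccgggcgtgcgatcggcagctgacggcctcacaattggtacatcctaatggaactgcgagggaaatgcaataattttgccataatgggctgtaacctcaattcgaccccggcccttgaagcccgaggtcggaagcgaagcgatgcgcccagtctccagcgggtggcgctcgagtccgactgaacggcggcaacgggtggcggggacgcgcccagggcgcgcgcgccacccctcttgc
The Hoxd13 window was 74.4% GC, that of Hoxa13 80.0%, that of Hoxb8 44.4% and that of Hoxa5 63.6%, against a median of 56.8% over the 22 Hox windows and 52.0% over 27025 genes. The CACGTG of Hoxd13 reads as ACGTG on both strands, and Hoxb8 held 2 TTTATG matches on opposite strands. Among the 22 Hox windows 13.6% held TNAAGTG, 18.2% ACGTG, 22.7% TTTATG and 27.3% AGGTCA. Among the 27025 windows of all genes these shares were 10.0%, 16.6%, 11.1% and 13.8%. With 22 windows these shares rest on 3, 4, 5 and 6 genes, and a match is a run of letters, not a binding site.

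The central genes, which pattern the neck, thorax and lung, were higher in mutant-normoxia hearts in every cluster. Hoxb5 had 95.4 fragments in mutant-normoxia hearts and 40.5 in wild-normoxia hearts (log2 1.22, model SE 0.39). Hoxb6, known from lateral plate mesoderm, had 52.2 fragments in mutant-normoxia hearts and 15.8 in wild-normoxia hearts (log2 1.66, model SE 0.64). Hoxb8 had 54.5 fragments in mutant-normoxia hearts and 17.4 in wild-normoxia hearts (log2 1.59, model SE 0.39), and Hoxb7 had 17.4 against 7.57 (log2 1.10, model SE 0.50). The Hoxb7 and Hoxb8 models share 1069 exon bases, so that the division of fragments between this pair is uncertain. In cluster A, Hoxa7 had 68.6 fragments in mutant-normoxia hearts and 20.6 in wild-normoxia hearts, and its log2 fold change of 1.69 was under 2 of its model SE of 0.93. Hoxc8 (30.9 fragments in mutant-normoxia hearts, 13.7 in wild-normoxia hearts) and Hoxd8 (19.4 and 9.17) were over 2-fold higher too, again within 2 model SE. The other central genes compared were not over 2-fold. Hoxa5 had 185 fragments in mutant-normoxia hearts and 95.8 in wild-normoxia hearts (log2 0.94, model SE 0.41), Hoxc6 had 59.4 and 33.1 (log2 0.82, model SE 0.74), and Hoxc5 had 127 and 83.6 (log2 0.60). Hoxa6 was at 5.41 and 2.36 fragments and was not compared.

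The anterior genes differed least between mutant-normoxia and wild-normoxia hearts. Hoxc4 had 106 fragments in mutant-normoxia hearts and 62.2 in wild-normoxia hearts (log2 0.76, model SE 0.29), and Hoxb4, a gene of the hindbrain and of blood stem cells, had 127 and 82.1 (log2 0.63, model SE 0.27). These were the 2 anterior genes past 2 model SE. Hoxa2 and Hoxa3, which pattern the pharyngeal arches, had 90.8 and 148 fragments in mutant-normoxia hearts, against 66.4 and 103 in wild-normoxia hearts. Hoxa4, Hoxb2 and Hoxb3 had 85.2, 177 and 261 fragments in mutant-normoxia hearts, against 61.0, 122 and 199 in wild-normoxia hearts. Hoxd3 had 78.6 fragments in mutant-normoxia hearts and 81.3 in wild-normoxia hearts (log2 -0.05, model SE 0.42), and its model overlaps that of Hoxd4. Hoxb1 and Hoxd1, genes of the earliest hindbrain and of sensory neurons, stayed under 10 fragments in all groups. In all, 15 of the 28 compared genes were over 2 model SE higher in mutant-normoxia hearts, against 3.14% of all compared genes, or 7 with variances that were not divided by the number of samples, against 0.872%. Of the 15, 6 passed the minimum through the mutant-normoxia group alone.

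**Figure D2:**
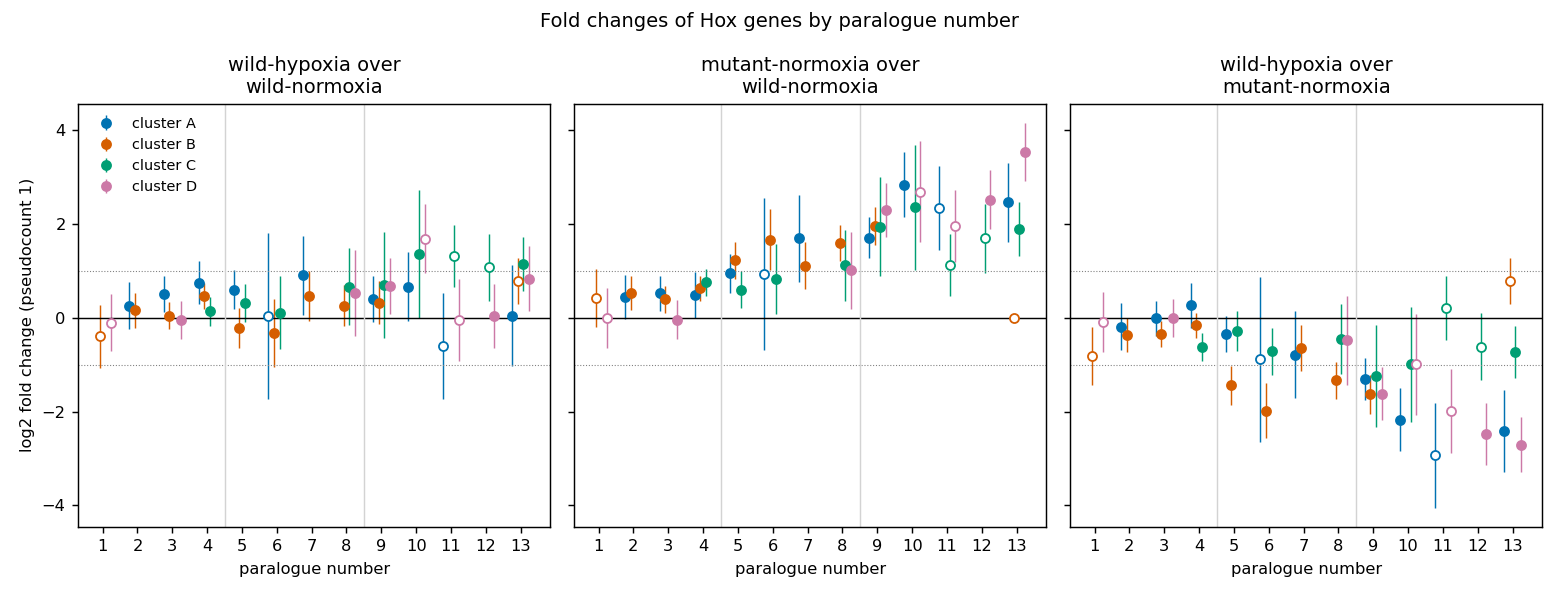
Log2 fold change (pseudocount 1) of the 37 Hox genes against paralogue number, coloured by cluster, for wild-hypoxia over wild-normoxia, mutant-normoxia over wild-normoxia and wild-hypoxia over mutant-normoxia, with bars of 1 model SE, dotted lines at 2-fold, grey lines between regions, and open circles for genes under 10 fragments in all groups. In mutant-normoxia hearts the points climb to 3.53 for Hoxd13, and in wild-hypoxia hearts the filled points of all genes but Hoxc10 and Hoxc13 stay under 2-fold from wild-normoxia.

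Wild-hypoxia hearts were compared with the same wild-normoxia hearts, so that the values of the mutant-normoxia and wild-hypoxia comparisons share their control and are given side by side only. The posterior genes summed to 84.5 fragments in wild-hypoxia hearts, against 50.3 in wild-normoxia hearts (log2 0.75, model SE 0.26). The central genes summed to 441 and 340 fragments (log2 0.38, model SE 0.20) and the anterior genes to 937 and 785 fragments (log2 0.25, model SE 0.13). Of the 37 genes 30 were higher in wild-hypoxia hearts by any amount and 7 lower, or 26 and 11 when groups were scaled to equal totals, whereas 42.6% of all genes above 0 in some group were higher and 53.3% lower. The median log2 fold change over the 37 was 0.39, against -0.02 over all compared genes.

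Single genes were less clear. Of the 28 compared, 2 were over 2-fold higher in wild-hypoxia hearts (Hoxc10 and Hoxc13), against 1.08% of all compared genes, and 0 were over 2-fold lower, against 1.91%. Hoxc13 had 9.87 fragments in wild-hypoxia hearts and 3.91 in wild-normoxia hearts (log2 1.15, model SE 0.57), and it was the 1 gene over 2 model SE, against 2.24% of all genes. With the undivided variances 0 were, against 0.744%. With the filter on the mean it was the 1 of 24 left over 2-fold, against 0.933%, and in the level range of the Hox genes 1.99% of genes were. Both Hoxc13 and Hoxc10 were among the genes that passed the minimum through the mutant-normoxia group alone. Hoxc10 had 4.64 fragments in wild-hypoxia hearts and 1.21 in wild-normoxia hearts, a ratio of 3.85 with a counting interval of 0.56 to 237. Some genes with high folds in the mutant were close to control here. Hoxa13 had 1.81 fragments in wild-hypoxia hearts and 1.73 in wild-normoxia hearts, and Hoxd12 had 1.32 and 1.26. Hoxd13 had 3.36 fragments in wild-hypoxia hearts and 1.46 in wild-normoxia hearts (log2 0.83, model SE 0.69), and Hoxa10 had 4.73 and 2.63 (log2 0.66, model SE 0.73). In cluster B, Hoxb5 had 34.5 fragments in wild-hypoxia hearts and 40.5 in wild-normoxia hearts (log2 -0.22, model SE 0.43), Hoxb6 had 12.5 and 15.8 (log2 -0.32, model SE 0.72) and Hoxb8 had 21.0 and 17.4 (log2 0.26, model SE 0.44). Cluster A held several genes with higher values in wild-hypoxia hearts. Hoxa3 had 147 fragments in wild-hypoxia hearts and 103 in wild-normoxia hearts (log2 0.50), Hoxa4 had 103 and 61.0 (log2 0.74), Hoxa5 had 145 and 95.8 (log2 0.60) and Hoxa7 had 39.3 and 20.6 (log2 0.90, model SE 0.84). Each of these 4 differences lay within 2 model SE.

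Set directly against each other, wild-hypoxia hearts had fewer Hox fragments than mutant-normoxia hearts, and the difference grew toward the posterior end. The posterior sum was 84.5 fragments in wild-hypoxia hearts and 276 in mutant-normoxia hearts, a ratio of 0.306 (log2 -1.71, model SE 0.22). The central sum was 441 in wild-hypoxia hearts and 715 in mutant-normoxia hearts (log2 -0.70, model SE 0.19), and the anterior sum 937 and 1083 (log2 -0.21, model SE 0.13). Of the 37 genes 34 were lower in wild-hypoxia hearts, whereas 54.9% of all genes above 0 in some group were lower. Of the 28 compared, 11 were over 2-fold lower, against 1.73% of all genes and 4.15% in their level range, and 0 were over 2-fold higher, against 0.238%. With the filter on the mean, 0 of 8 anterior, 3 of 10 central and 5 of 6 posterior genes were over 2-fold lower, against 1.34%. Of those 5, Hoxa10, Hoxc9 and Hoxd13 reached the mean only through mutant-normoxia hearts, and of the 11 over 2-fold lower 6 passed the minimum that way, so that these posterior counts were largely set by the filters. Over 2 model SE lower were 11 of the 28, against 1.98%, or 4 with the undivided variances, against 0.459%. Hoxd13 had 3.36 fragments in wild-hypoxia hearts and 27.4 in mutant-normoxia hearts (log2 -2.71, model SE 0.58). Hoxb6 had 12.5 fragments in wild-hypoxia hearts and 52.2 in mutant-normoxia hearts (log2 -1.98, model SE 0.59), Hoxb9 17.8 and 57.3 (log2 -1.63, model SE 0.42) and Hoxb5 34.5 and 95.4 (log2 -1.44, model SE 0.41). Hoxa3, with 147 and 148 fragments, and Hoxd3, with 78.3 and 78.6, were level between both groups.

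Among clusters, the sum for cluster A was 540 fragments in wild-hypoxia, 674 in mutant-normoxia and 367 in wild-normoxia hearts. Cluster B summed to 555, 848 and 503 fragments in the same groups, cluster C to 258, 378 and 204, and cluster D to 109, 174 and 101. In clusters A to C the sums mostly follow the anterior and central genes, which hold most fragments. In cluster D these genes hold most fragments too, but the higher sum in mutant-normoxia hearts lay mainly in posterior genes. There Hoxd3 had 78.6 fragments in mutant-normoxia and 81.3 in wild-normoxia hearts, and Hoxd8 19.4 and 9.17. Hoxd9 had 15.5 and 2.37, and Hoxd13 27.4 and 1.46. The total over the 37 genes was 1463 in wild-hypoxia, 2074 in mutant-normoxia and 1175 in wild-normoxia hearts. The split by region differed between the groups. Posterior genes held 5.78% of Hox fragments in wild-hypoxia hearts, 13.3% in mutant-normoxia hearts and 4.28% in wild-normoxia hearts. Anterior genes held 64.0%, 52.2% and 66.8%, and central genes 30.2%, 34.5% and 28.9%. Over the 37 genes the log2 fold change had a Spearman rho with paralogue number of 0.44 in wild-hypoxia over wild-normoxia, 0.77 in mutant-normoxia over wild-normoxia and -0.52 in wild-hypoxia over mutant-normoxia hearts. Since levels declined with paralogue number over the 37 genes, paralogue number and level go together, and the lowest genes have the widest errors.

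**Figure D3:**
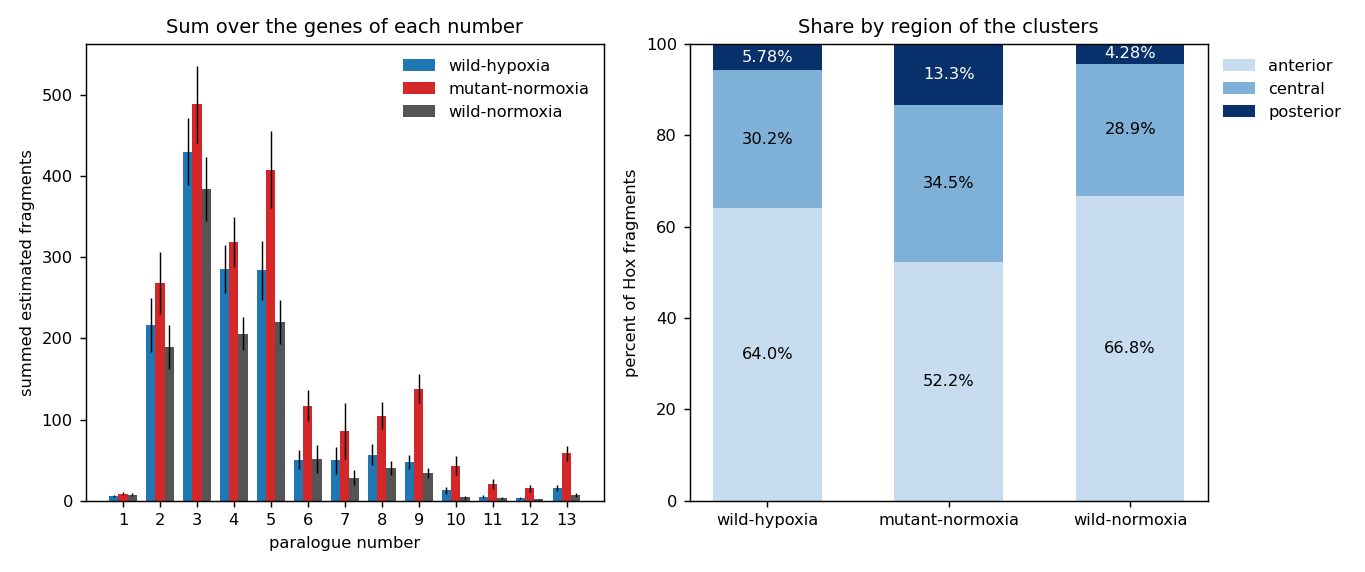
Left, estimated fragments summed over the genes of each paralogue number in wild-hypoxia, mutant-normoxia and wild-normoxia hearts, with bars of 1 model SE, and right, the percentage of each group's Hox fragments in anterior, central and posterior genes. The sum for number 9 was 47.7 in wild-hypoxia, 138 in mutant-normoxia and 34.0 in wild-normoxia hearts, and posterior genes held 13.3% in mutant-normoxia hearts.

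Few genes that work with or above the Hox genes differed over 2-fold. All 9 TALE cofactors were measured, none differed over 2-fold in any comparison, and their median log2 fold change was 0.00 in both comparisons with wild-normoxia hearts. Meis1 had 1566 fragments in wild-hypoxia, 1684 in mutant-normoxia and 1570 in wild-normoxia hearts. Pknox2 was past 2 model SE in mutant-normoxia over wild-normoxia hearts (log2 0.42, model SE 0.18). Of the 9 upstream regulators 5 were compared, and 0 of them were over 2-fold from wild-normoxia hearts in either group. Gbx2, a hindbrain gene, was over 2-fold lower in wild-hypoxia than in mutant-normoxia hearts (6.08 and 16.6 fragments, log2 -1.31). The caudal genes Cdx1, Cdx2 and Cdx4, which switch on central and posterior Hox genes in the tail bud, and T, a tail bud gene, stayed under 10 fragments in every group. Of 17 compared genes of the retinoic acid axis 1 was over 2-fold, the retinaldehyde dehydrogenase gene Aldh1a1, with 50.9 fragments in wild-hypoxia, 89.3 in mutant-normoxia and 42.6 in wild-normoxia hearts (log2 1.05 in mutant-normoxia). Smaller differences past 2 model SE in mutant-normoxia over wild-normoxia hearts were those of Stra6 (log2 0.94, model SE 0.34), a retinol transporter, Crabp2 (log2 0.70, model SE 0.20), a retinoic acid binding protein, and Aldh1a2 (log2 0.62, model SE 0.15), the main retinoic acid synthesis enzyme of the embryo. In wild-hypoxia over wild-normoxia hearts Stra6 (log2 0.71, model SE 0.35), Aldh1a2 (log2 0.44, model SE 0.15) and Rarg (log2 0.37, model SE 0.16) were among the genes past 2 model SE. Of all compared genes, 3.14% were over 2 model SE higher in mutant-normoxia hearts and 2.24% in wild-hypoxia hearts. Of 23 measured Polycomb and Trithorax genes, which keep Hox clusters silent or active, 0 were over 2-fold in any comparison, with a median of -0.03 in both comparisons with wild-normoxia hearts. Kdm6a among them was past 2 model SE in wild-hypoxia over wild-normoxia hearts (log2 -0.32, model SE 0.14).

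Of 16 listed non-coding genes inside the clusters only 7 were matched by symbol to a row. The others were not matched, and some may be listed under other names. The 6 listed microRNA genes of the Mir10, Mir196 and Mir615 families were listed at 0 in all groups. Hoxb3os, antisense to Hoxb3 and Hoxb2, had 56.9 fragments in wild-hypoxia, 85.2 in mutant-normoxia and 76.4 in wild-normoxia hearts. Hoxa11as, singled out after its values were seen, had 2.09 fragments in wild-hypoxia, 20.7 in mutant-normoxia and 0.62 in wild-normoxia hearts, and it shares 1038 exon bases with Hoxa11 on the opposite strand. No source used here says that the counting used strand, so reads of Hoxa11 and of its antisense gene cannot be told apart. Evx2, which lies beyond Hoxd13 at the posterior end of cluster D, had 0.66 fragments in wild-hypoxia, 6.21 in mutant-normoxia and 4.87 in wild-normoxia hearts.

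Markers of other embryonic tissues differed between the same groups. Posterior Hox RNA is abundant in spinal cord, body wall, limb and gut at this stage, and the part of such tissues in the Hox values was not tested. The counts below stand beside 1.08% of all compared genes over 2-fold higher and 1.91% lower in wild-hypoxia hearts, and 1.59% higher and 0.494% lower in mutant-normoxia hearts. As among the Hox genes, some counted genes reached 10 fragments through 1 group alone, so that the filter itself required them to differ. These include Olig2 and Nkx2-1, through mutant-normoxia hearts, and Lhx1 and Atoh1 of the spinal cord and hindbrain list, through wild-normoxia hearts. In the limb and body wall list 1 of 10 genes was over 2-fold higher in wild-hypoxia hearts and 5 of 10 in mutant-normoxia hearts (summed fragments 8747 in wild-hypoxia, 8570 in mutant-normoxia and 7838 in wild-normoxia). The gene higher in wild-hypoxia hearts was Lmx1a, with 642 fragments in wild-hypoxia, 598 in mutant-normoxia and 280 in wild-normoxia hearts. It was also among the 5. Of these 5, Tbx4, a hindlimb and lung mesenchyme gene, had 48.4 fragments in wild-hypoxia, 116 in mutant-normoxia and 32.6 in wild-normoxia hearts. Pitx1, a hindlimb gene also of the 5, had 32.6, 73.1 and 27.0. In the lung bud and foregut list 3 of 15 genes were over 2-fold higher and 1 lower in wild-hypoxia hearts, and 8 were higher in mutant-normoxia hearts (median log2 1.04 in mutant-normoxia, sums 2545, 3084 and 2439). Nkx2-1, the lung and thyroid regulator, had 9.32 fragments in wild-hypoxia, 81.6 in mutant-normoxia and 0.77 in wild-normoxia hearts, while the alveolar gene Sftpc stayed under 10. In the somite and skeletal muscle list 5 of 11 genes were over 2-fold higher and 1 lower in wild-hypoxia hearts, and 5 were higher in mutant-normoxia hearts (sums 10428, 13264 and 8344). In the spinal cord and hindbrain list 7 of 16 genes were over 2-fold lower in wild-hypoxia hearts (median log2 -0.95). In mutant-normoxia hearts 3 were over 2-fold higher (Pax6, Neurog2 and Olig2) and 1, Nhlh2, was lower (sums 346, 612 and 560). Liver genes were over 2-fold lower in wild-hypoxia hearts for 7 of 7 and in mutant-normoxia hearts for 6 of 7 (sums 1502, 1684 and 4590). Red cell genes were over 2-fold higher for 5 of 6 in wild-hypoxia and 4 of 6 in mutant-normoxia hearts (sums 40673, 35434 and 15881), and keratinocyte genes for 4 of 8 in each (sums 16837, 17465 and 15435). Dsp alone held 13510, 14480 and 13221 fragments of the keratinocyte sums. In the same order Acta1 held 8252, 10339 and 6933 of the somite and skeletal muscle sums, and Hand2 4826, 4265 and 4420 of the limb and body wall sums. None of these genes differed over 2-fold, so these sums need not follow the other genes of their lists. Over 2-fold higher in mutant-normoxia hearts was also 1 gene each of the second heart field (Fgf10), neuron (Isl2) and neural crest (Sox10) lists. Sox10 was over 2-fold higher in wild-hypoxia hearts too, where 2 neuron genes (Elavl3 and Robo3) were over 2-fold lower. Apart from the 6 microRNA genes, no listed gene with a row was at 0 in all groups. Each list was described with earlier results of these data known, and none was tested.

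**Figure D4:**
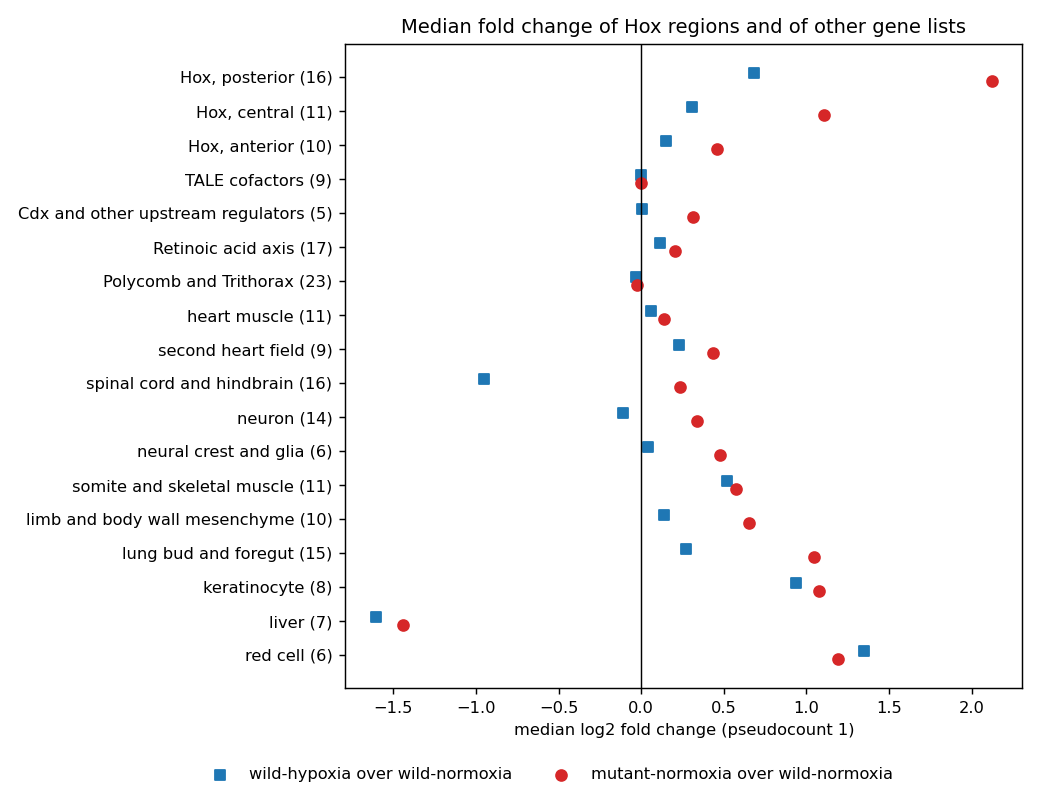
Median log2 fold change of the Hox regions (all genes with a row) and of other gene lists (compared genes), with the number of genes in brackets, for wild-hypoxia (blue squares) and mutant-normoxia (red circles) over the shared wild-normoxia hearts. Posterior Hox genes had the highest median in mutant-normoxia hearts, and the lung bud and foregut list stood at 1.04.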

How the data were processed

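RNA-seq libraries of polyA RNA from pooled E12.5 hearts were sequenced as single-end reads of 40 bases. The authors mapped them to the mm9 genome with Bowtie2 and TopHat and estimated expression with Cufflinks. Tool versions, annotation release and strand use: not given in the sources used here. One deposited table holds 1 estimated count of fragments for each gene in each of the 3 groups, already on 1 scale, and beside it the authors' model variance of that count, in squared fragments. Samples were grouped by the submitters' labels (10 samples). The Hox genes and the 17 gene lists were chosen with earlier results of these data known. Symbols were matched to Ensembl identifiers, which named 65.9% of the genes. Gene models and coordinates come from the NCBIM37 annotation, which may not be the authors' own, and promoters from RefSeq.

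Log2 fold changes used a pseudocount of 1 and a minimum of 10 fragments in at least 1 group; a count test planned for values per sample could not be run on group values. Genes over 2-fold were counted. Model SEs came from the deposited variances by the delta method, and counting intervals were exact binomial at 95%. For sums the variances were added over genes, taking the genes as independent. Hox genes of at least 10 fragments in some group were named with their values, and of each list at most 4 genes over 2-fold. Other pseudocounts, minimums and scalings were tried. Genes without an estimate (21 in wild-hypoxia, 32 in mutant-normoxia and 28 in wild-normoxia) were left out. Python 3.11.15, numpy 2.4.6, pandas 2.3.3 and scipy 1.17.1 were used, and the scripts were tested on simulated data.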

Additional observations from a re-analysis of the deposited data

How the results depend on the processing

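With 1 value per group, no sample could be left out and a single outlying sample would not show. No paired analysis was possible because the table holds no value for a single sample. Errors rest on a model variance, and the posterior genes, mostly under 30 fragments, are the least precise. A pseudocount of 0.5 and scalings to equal totals, equal upper quartiles or the median ratio moved none of the 84 single-gene values past its model SE. A pseudocount of 10 moved 15. Scaling to equal totals turned the direction of 4 near-level genes in wild-hypoxia against wild-normoxia hearts (Hoxa6, Hoxa13, Hoxb3 and Hoxd12), and the other 2 scalings turned that of Hoxd3 in wild-hypoxia against mutant-normoxia hearts. The pseudocount of 10 left 0, 11 and 7 Hox genes over 2-fold (wild-hypoxia higher, mutant-normoxia higher, wild-hypoxia lower than mutant-normoxia) and medians of 0.23, 0.87 and -0.51, against 2, 17 and 11 and 0.43, 1.17 and -0.72 as reported over the 28 compared. A minimum of 50 fragments left 16 genes, with 0, 5 and 4 over 2-fold and medians of 0.26, 0.69 and -0.36. Without a filter 5 of 37 were over 2-fold higher in wild-hypoxia hearts. Settings added after seeing the data were a minimum on the mean, which left 1 gene over 2-fold higher in wild-hypoxia hearts (Hoxc13), and only genes sharing no exon bases (15), with 1 gene higher and a median of 0.60 in wild-hypoxia, 11 higher and 1.88 in mutant-normoxia, and a median of -1.25 between both.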
